A study of Mus musculus with 54 samples.

Results

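Late proximal tubules of diabetic Akita mice on dapagliflozin were set against those of nondiabetic mice on the same drug, over all genes. The libraries were chosen by their labels alone and made up 11 of the 52 with values, 5 from Akita WT dapagliflozin samples and 6 from nondiabetic WT dapagliflozin samples. The Akita group carried Ins2 Akita/+, a misfolding mutation of an insulin gene that causes diabetes through loss of beta cells. The nondiabetic group was Ins2+/+, and both groups were Sglt1+/+, male, of DBA background and 14 weeks old. Both had received dapagliflozin in the diet at 10 mg/kg for 2 weeks, so the drug is shared and does not separate them. The same diabetes contrast is given beside it for Akita WT vehicle against nondiabetic WT vehicle, and for Akita KO dapagliflozin against nondiabetic KO dapagliflozin, where KO is Sglt1-/- (6 libraries in each of these 4 groups). Each sample held RNA from 70 to 80 laser-captured tubules that bound the lectin LTL and lacked SGLT2 protein, so the gene for SGLT2 was part of the capture rule. The labels do not say that the samples of a group came from separate animals, and the p-values measure only the spread between these samples.

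The proximal tubule takes back nearly all filtered glucose. SGLT2 (Slc5a2) does most of this in the early segments, and SGLT1 (Slc5a1) recovers what is left in the late segment, S3. Dapagliflozin blocks SGLT2, which lowers blood glucose in diabetes and sends more glucose on to S3. The same cells make glucose, burn fatty acids, take up filtered protein carriers and excrete drugs and other foreign compounds.

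Values are TPM, the authors' level per gene length, which allows genes to be compared within a library. Their total was not the same in every library, and the sources do not explain this scaling. Differences are log2 differences of TPM + 1, Akita minus nondiabetic, each with its standard error, and a gene passed when its limma p, adjusted over 15424 tested genes, was under 0.05. Summed markers of S3 reached 6016 to 7284 TPM in Akita dapagliflozin libraries, against 4519 to 8696 TPM in nondiabetic dapagliflozin libraries. Summed markers of S1 and S2, the early segments, reached 225 to 676 TPM in the Akita libraries, against 257 to 1183 TPM in the nondiabetic libraries, so early tubule was not absent. RNA of the 7S genes Rn7s1, Rn7s2 and Rn7sk, small noncoding RNAs, took 9.23 to 15.7% of the summed TPM in Akita libraries and 12 to 23.6% in nondiabetic libraries. With this share as a covariate in the fit, the 1 gene that otherwise passed, Gm45011, did not (limma adjusted p 0.0879). In these bulk samples fewer cells of a type and less RNA per cell cannot be told apart.

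**Figure D1:**
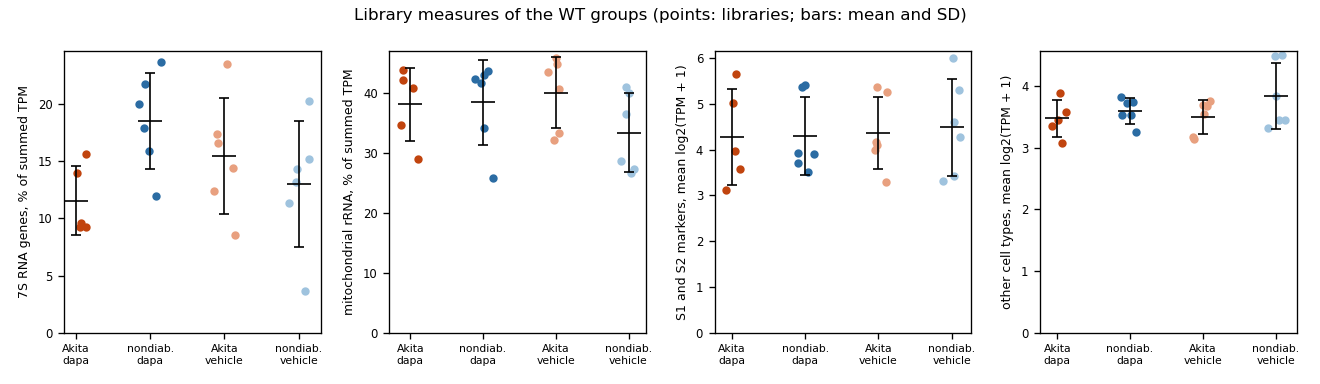
Share of 7S RNA genes and of mitochondrial rRNA in the summed TPM (%), and mean log2(TPM + 1) of markers of S1 and S2 and of other cell types, in each library of the 4 WT groups (points) with the mean and SD (bars). The 7S RNA share spans 9.23 to 15.7% in Akita dapagliflozin and 12 to 23.6% in nondiabetic dapagliflozin libraries, while mitochondrial rRNA spans 29.0 to 43.9% and 25.8 to 43.7%.

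Under dapagliflozin, the tubules of diabetic and nondiabetic mice differed in 1 gene at the adjusted threshold, which was higher in Akita libraries (0.00648% of the tested genes). With limma 0 genes were lower (0% of the tested genes). At an unadjusted p under 0.05, 297 genes were higher (1.93%) and 236 lower (1.53%), together 3.46% of the tested genes. In 29 genes every Akita library lay above every nondiabetic library (0.188% of the tested genes), and in 17 every Akita library lay below (0.11%). The median log2 difference over all tested genes was 0.02, and the median standard error of a gene was 0.26.

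The gene that passed was Gm45011 (ENSMUSG00000108968), a locus annotated only as to be experimentally checked, with no known function. It lies at chr7:28226358-28228654 on the plus strand of GRCm38, between the protein-coding genes Dyrk1b and Eid2 and overlapping neither. Its level was 20.4, 4.90, 20.7, 44.2 and 11.7 TPM in the Akita dapagliflozin libraries, against a lowest of 1.01, a median of 2.28 and a highest of 2.82 TPM in the nondiabetic dapagliflozin libraries. The groups did not overlap, and the Akita library of replicate 5 was the highest. The log2 difference was 2.54 ± 0.47 (SE), with a limma adjusted p of 0.030. The call was lost with a pseudocount of 0.1 (limma adjusted p 0.302), with only the groups compared in the fit (0.127) and with the 7S RNA share as a covariate (0.0879). The call was lost without any 1 of 9 of the 11 libraries, with adjusted p of 0.052 to 0.62 over those fits, and was kept without Akita replicate 3 (0.00267) or nondiabetic replicate 5 (0.049). The neighbour Dyrk1b, a kinase gene, differed by -0.01 ± 0.15 and Eid2 by 0.49 ± 0.23, neither past the threshold. Gm45011 was higher in Akita in vehicle libraries too, at 18.2 ± 7.89 TPM in Akita vehicle and 0.600 ± 0.898 TPM in nondiabetic vehicle libraries (SD, n = 6 each), a log2 difference of 3.62 ± 0.45. In the KO dapagliflozin libraries it averaged 4.71 TPM in Akita and 2.38 TPM in nondiabetic libraries, a log2 difference of 1.01 ± 0.45 that did not pass.

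The genes named next have the smallest p among genes with a log2 difference of at least 0.5 in size, predicted genes left out, and none of them passed the adjusted threshold. Fam124a, a gene of little-known function, stood at 27.5, 12.9, 16.4, 18.9 and 13.5 TPM in Akita dapagliflozin libraries, against a lowest of 1.75, a median of 3.68 and a highest of 6.83 TPM in nondiabetic dapagliflozin libraries. The groups did not overlap, and the log2 difference was 1.98 ± 0.46 with a limma adjusted p of 0.391. Bloc1s5, a subunit of the BLOC-1 complex that sorts cargo to lysosome-related organelles, averaged 10.8 ± 3.12 TPM in Akita and 3.2 ± 0.553 TPM in nondiabetic libraries, again with no overlap (log2 1.46 ± 0.37). Its vehicle values showed no such gap, with a log2 difference of -0.13 ± 0.36 there. Mettl25, a predicted methyltransferase, averaged 10.7 ± 2.93 TPM in Akita and 5.17 ± 1.48 TPM in nondiabetic libraries, without overlap. Il7, the lymphocyte growth factor interleukin 7, averaged 2.12 ± 0.531 TPM in Akita and 0.748 ± 0.623 TPM in nondiabetic libraries, and Col5a3, a fibrillar collagen chain, 14.1 ± 7.83 TPM and 5.76 ± 1.79 TPM; both overlapped. Pank2, a mitochondrial pantothenate kinase that starts coenzyme A synthesis, averaged 24.0 ± 3.31 TPM in Akita and 15.4 ± 3.47 TPM in nondiabetic libraries. Adprhl2, which removes ADP-ribose from proteins, averaged 29.4 ± 6.13 TPM in Akita and 18.9 ± 4.79 TPM in nondiabetic libraries.

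Among genes on the lower side in Akita, Dpf3, a reader of histone marks in BAF chromatin remodelling complexes, had the smallest p. It stood at 6.18, 3.99, 7.21, 2.00 and 4.74 TPM in Akita dapagliflozin libraries, against a lowest of 7.62, a median of 9.94 and a highest of 14 TPM in nondiabetic dapagliflozin libraries. The groups did not overlap, and the log2 difference was -1.04 ± 0.22 with a limma adjusted p of 0.140, which reached 0.0385 with array weights. In vehicle libraries Dpf3 differed by 0.18 ± 0.21. Smad7, the inhibitory SMAD that TGF-beta and BMP signals switch on, stood at 11.8, 18.8, 15.5, 12.7 and 13.1 TPM in Akita libraries, against a lowest of 17.1, a median of 32.2 and a highest of 46.5 TPM in nondiabetic libraries. Of its 5 Akita libraries, 1 reached into the nondiabetic range (log2 -1.04 ± 0.28). Ache, acetylcholinesterase, averaged 0.314 ± 0.234 TPM in Akita and 1.89 ± 0.806 TPM in nondiabetic libraries (log2 -1.09 ± 0.29). Bst2, the interferon-induced antiviral protein tetherin, was at 0 in 3 of 5 Akita libraries and averaged 0.495 TPM in Akita and 3.91 TPM in nondiabetic libraries, without overlap. Pspc1, a protein of nuclear paraspeckles, averaged 127 ± 11.6 TPM in Akita and 192 ± 46.1 TPM in nondiabetic libraries (log2 -0.56 ± 0.16). Rasal3, a Ras GTPase-activating protein of blood cells, averaged 1.02 TPM in Akita and 7.03 TPM in nondiabetic libraries, but 1 nondiabetic library alone held 23.3 TPM. The same held for Rpgrip1l, a ciliary transition zone protein, with 77.7 TPM in 1 nondiabetic library and 8.81 to 25.1 TPM in the others, against 6.87 to 9.25 TPM in Akita libraries. Hist2h2aa2, a histone H2A gene, was at 0 in 4 of 5 Akita libraries, against 37.9 to 384 TPM in nondiabetic libraries, and near-identical histone copies can share its reads.

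**Figure D2:**
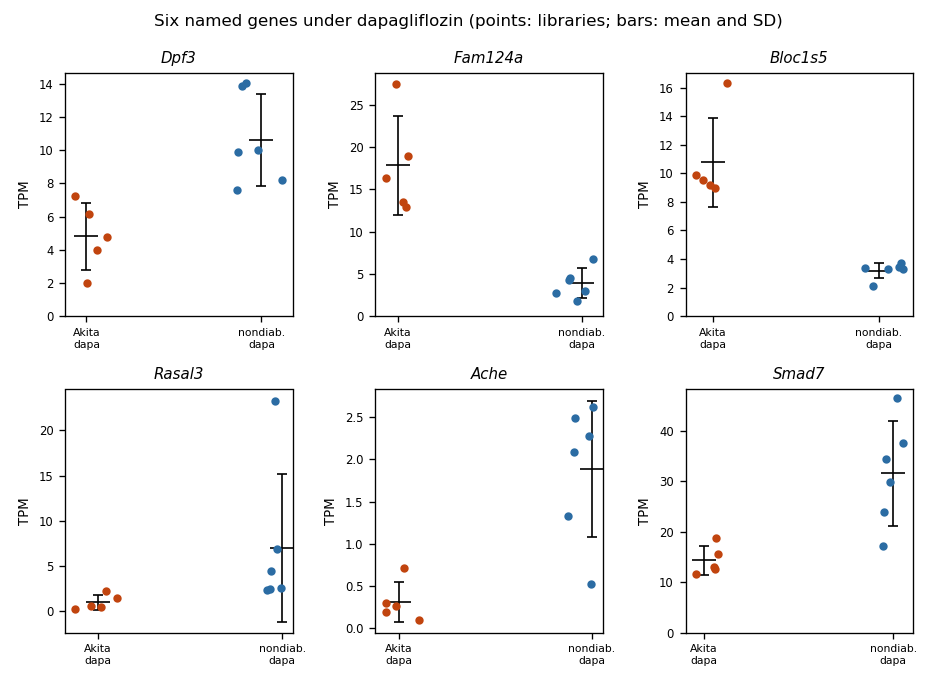
TPM of Dpf3, Fam124a, Bloc1s5, Rasal3, Ache and Smad7 in each dapagliflozin library (points) with the mean and SD (bars), Akita left of nondiabetic. For Dpf3 the Akita libraries lie at 2.00 to 7.21 TPM, below the nondiabetic libraries, and for Fam124a they lie at 12.9 to 27.5 TPM, above them.

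In the albumin family Afm was among the genes of smallest p, and Gc was named from the vehicle comparison. Afm, afamin, carries vitamin E, and Gc carries vitamin D; both proteins are made mainly by liver and are filtered and taken up by the proximal tubule. Their promoters are shown because both genes were higher in Akita vehicle libraries. The 250 bases before the RefSeq start on GRCm38.p6, on the gene's strand, are given with the motif GTTAAT or its reverse ATTAAC in capitals, letters found in the binding site of HNF1, a factor of tubule and liver; the motif was chosen after the values were seen.
Afm promoter: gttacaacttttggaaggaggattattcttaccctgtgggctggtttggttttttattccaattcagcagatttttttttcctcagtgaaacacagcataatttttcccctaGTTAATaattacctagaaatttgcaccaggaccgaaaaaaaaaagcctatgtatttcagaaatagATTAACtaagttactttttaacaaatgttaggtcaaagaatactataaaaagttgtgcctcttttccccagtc
Gc promoter: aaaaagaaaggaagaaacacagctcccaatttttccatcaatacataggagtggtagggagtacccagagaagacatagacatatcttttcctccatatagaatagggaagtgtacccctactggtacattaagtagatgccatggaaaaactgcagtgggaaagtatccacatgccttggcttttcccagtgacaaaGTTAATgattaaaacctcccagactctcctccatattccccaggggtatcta
The Afm stretch is chr5:90518699-90518948 on the plus strand and holds 2 matches, whose first bases lie 138 and 73 bases before the start. The Gc stretch is chr5:89457899-89458148 on the minus strand and holds 1 match, 52 bases before the start. Alb, the albumin gene of the same family, also holds 1 match, 32 bases before its start. The windows of Ccng1, Ctnna2, Dpf3, Fam124a, Gpd2, Mdm2 and Pklr, searched in the same way, hold no match. Of 32851 promoters of this length, 6.43% hold the motif on either strand. The E-box CACGTG, found in 6.02% of them, was looked for in the same way in Afm, Gc, Gpd2 and Pklr and has no match in these windows. Motif matches describe the letters and do not show binding.

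Afm stood at 40.3, 57.4, 48.2, 59.7 and 55.5 TPM in Akita dapagliflozin libraries, against a lowest of 18.9, a median of 32.9 and a highest of 50.5 TPM in nondiabetic dapagliflozin libraries. The groups overlapped in the upper nondiabetic values, and the log2 difference was 0.67 ± 0.20. Gc stood at 5.53, 15.1, 2.23, 8.09 and 8.04 TPM in Akita libraries, against a lowest of 0.765, a median of 1.64 and a highest of 12.4 TPM in nondiabetic libraries. Nondiabetic libraries other than replicate 3 reached at most 2.21 TPM, and the log2 difference was 1.26 ± 0.59. In vehicle libraries both passed, with log2 differences of 1.35 ± 0.19 for Afm and 3.22 ± 0.56 for Gc. Alb, serum albumin itself, averaged 1.34 TPM in Akita and 1.86 TPM in nondiabetic dapagliflozin libraries, a log2 difference of 0.00 ± 0.36.

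The same diabetes contrast without the drug was taken from the vehicle libraries in the same fit. There 60 genes passed (0.389% of the tested genes), 52 higher in Akita (0.337%) and 8 lower (0.0519%), with 1575 at an unadjusted p under 0.05 (10.2%). Markers of other cell types had a mean log2(TPM + 1) of 4.49 and 4.50 in nondiabetic vehicle replicates 1 and 2. The other nondiabetic vehicle libraries reached at most 3.85, and Akita vehicle libraries 3.15 to 3.76. Replicate 2 also held 4574 TPM of thick ascending limb markers and 3117 TPM of S3 markers. The effect of this on the 60 was not tested. Under dapagliflozin, 49 of the 52 and 4 of the 8 had the same direction, 53 of 60 in all, against 55.2% of all tested genes. An unadjusted p under 0.05 in the same direction was reached by 18 of the 52 and 1 of the 8, together 31.7% of the 60, against 2.21% of all tested genes, and 0 genes reached it in the opposite direction. The count of 19 became 35 when values were rescaled to the TPM left without mitochondrial rRNA, and 11 when only genes averaging at least 5 TPM were tested. In that last fit members of the 60 below 5 TPM dropped out and were not counted. Over all settings the count with the same direction ran from 39 to 54. The lower gene among these was Gpc1, a cell-surface heparan sulfate proteoglycan, with 12.3 ± 5.88 TPM in Akita and 23.9 ± 8.60 TPM in nondiabetic libraries (log2 -0.92 ± 0.28), named after its values were seen. The median log2 difference of the 52 was 0.54 under dapagliflozin and 1.45 with vehicle. All 60 were smaller in size under dapagliflozin, but the 60 were picked for being large in the vehicle libraries, so a smaller size elsewhere follows in part from that choice. Groups did not overlap in 3 of the 60 under dapagliflozin and in 42 with vehicle, against 0.298% and 0.733% of all tested genes. The count of 42 comes from the libraries in which the 60 were picked, so it follows largely from that choice and is no measure of the drug.

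**Figure D3:**
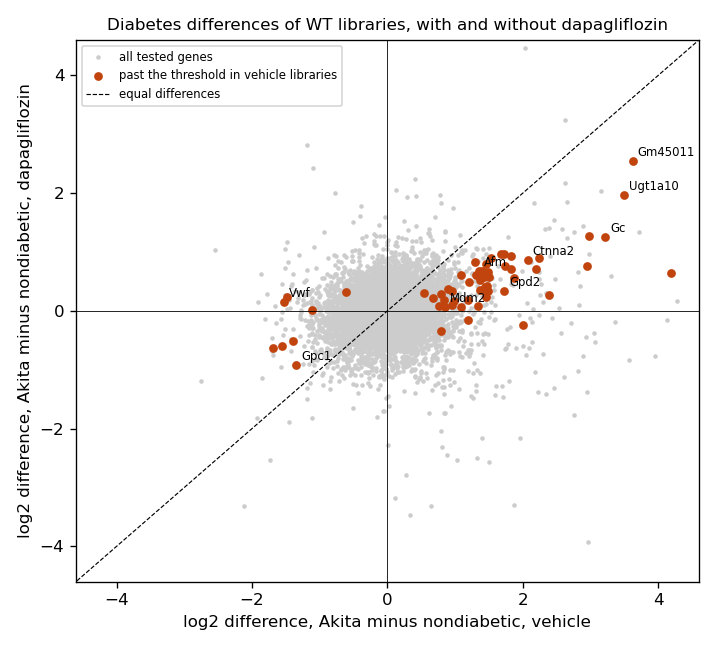
Log2 difference between Akita and nondiabetic WT libraries under dapagliflozin (vertical) against that with vehicle (horizontal) for all tested genes (grey) and for the 60 genes past the threshold in vehicle libraries (red), with the line of equal differences dashed. The 60 lie nearer to 0 on the vertical axis, with a median of 0.54 for the 52 higher genes, and 1 gene falls outside the axes.

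The 60 include sets that share a locus. Ctnna2, alpha-N-catenin, an adhesion protein known from neurons, lies at chr6:76881637-77979699 on the minus strand of GRCm38. It stood at 18.2, 11.4, 15.7, 26.1 and 15.4 TPM in Akita dapagliflozin libraries, against a lowest of 5.32, a median of 8.25 and a highest of 18.4 TPM in nondiabetic dapagliflozin libraries, a log2 difference of 0.86 ± 0.28. Within it, on the same strand, lie 6 further genes of the 60, namely 6330415B21Rik, Gm44435, Gm44433, Gm44235, Gm44438 and Gm44286, whose reads cannot be told from its introns. All 6 had the same direction with an unadjusted p under 0.05 under dapagliflozin. Without them 47 of 54 genes kept the direction, 13 with an unadjusted p under 0.05.

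Enzymes of detoxification and amine synthesis stayed further apart than most of the 60. Ugt1a10, a UDP-glucuronosyltransferase, stood at 3.52, 10.3, 1.29, 9.43 and 1.89 TPM in Akita dapagliflozin libraries and was at 0 in 4 of 6 nondiabetic dapagliflozin libraries, the others holding 1.05 and 1.41 TPM. Only Akita replicate 4 lay within the nondiabetic range, and the log2 difference was 1.97 ± 0.56, against 3.49 ± 0.53 with vehicle. The genes of the Ugt1a locus share their last exons, so the assignment of reads to Ugt1a10 is uncertain. Ephx1, microsomal epoxide hydrolase, averaged 37.2 ± 17.2 TPM in Akita and 17.3 ± 4.74 TPM in nondiabetic dapagliflozin libraries (log2 0.96 ± 0.35). In KO dapagliflozin libraries, where none of these genes passed, the difference was 0.02 ± 0.33 for Ephx1, 1.12 ± 0.53 for Ugt1a10, 0.28 ± 0.29 for Ddc and 0.63 ± 0.27 for Fam171b. Ddc, which makes dopamine in the proximal tubule, averaged 28.0 ± 7.11 TPM in Akita and 17 ± 7.79 TPM in nondiabetic dapagliflozin libraries (log2 0.80 ± 0.30). Fam171b, a membrane protein, averaged 1.81 ± 1.32 TPM and 0.599 ± 0.482 TPM in the same order of groups (log2 0.76 ± 0.28).

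**Figure D4:**
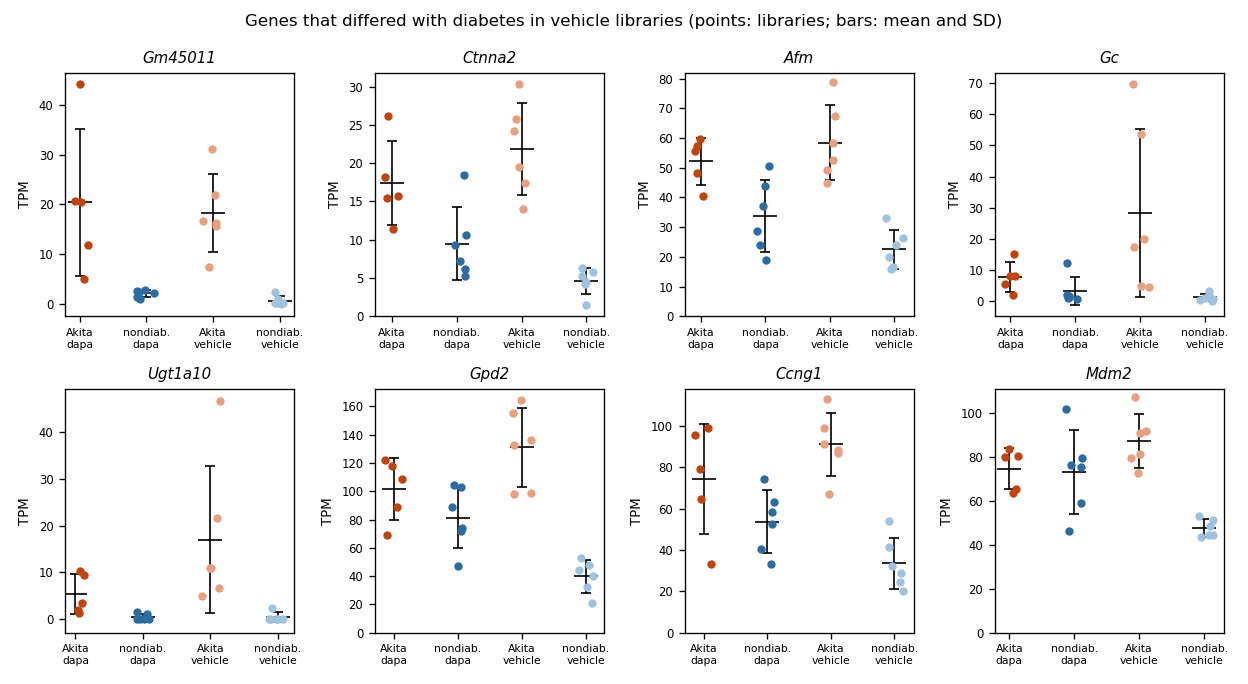
TPM of 8 genes past the threshold in vehicle libraries, in each library of the 4 WT groups (points) with the mean and SD (bars). Mdm2 averages 74.7 TPM in Akita and 73.2 TPM in nondiabetic dapagliflozin libraries, while Gm45011 averages 20.4 and 2.06 TPM.

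Genes of glucose handling lay close together in the dapagliflozin groups. Of 12 tested glucose transporters, 0 passed and 0 had an unadjusted p under 0.05 by limma. A positive difference was found for 9, against 7 with vehicle and 7 in KO dapagliflozin libraries. The median was 0.07, against 0.53 with vehicle and 0.06 in KO dapagliflozin libraries, and the gap between these medians was not tested. Slc5a1 stood at 70.7, 84.6, 42.8, 83.1 and 85.5 TPM in Akita dapagliflozin libraries, against a lowest of 46.3, a median of 60.5 and a highest of 93.5 TPM in nondiabetic dapagliflozin libraries. The groups overlapped, with a log2 difference of 0.18 ± 0.21; in KO dapagliflozin libraries Slc5a1 stood at 0.776 ± 0.396 TPM in Akita and 0.828 ± 0.378 TPM in nondiabetic libraries (SD, n = 6 each). Slc5a2 ran from 3.93 to 70.9 TPM in Akita and from 7.25 to 95.4 TPM in nondiabetic dapagliflozin libraries (log2 0.01 ± 0.91), with 1 nondiabetic library well above the rest. Slc5a10, a mannose and fructose carrier known as SGLT5, averaged 849 ± 131 TPM in Akita and 686 ± 209 TPM in nondiabetic dapagliflozin libraries (log2 0.35 ± 0.29), against 1.37 ± 0.28 with vehicle, which passed. Slc2a5, the fructose carrier GLUT5, averaged 405 ± 127 TPM in Akita and 317 ± 128 TPM in nondiabetic dapagliflozin libraries (log2 0.40 ± 0.37). Slc5a11, a myo-inositol carrier, differed by 0.42 ± 0.26.

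Polyol and fructose genes had 0 of 7 past the threshold, 6 of 7 positive and a median of 0.14, against 0.83 with vehicle and 0.31 in KO dapagliflozin libraries. Sord, which turns sorbitol into fructose, averaged 467 ± 91.1 TPM in Akita and 416 ± 89.9 TPM in nondiabetic dapagliflozin libraries. Khk, ketohexokinase, the entry step of fructose breakdown, averaged 524 ± 125 TPM and 478 ± 123 TPM in the same order. Tkfc, the triokinase of that route, averaged 402 ± 57.1 TPM in Akita and 366 ± 106 TPM in nondiabetic dapagliflozin libraries. Glycolysis had 15 of 16 genes above 0 with a median of 0.14, against 0.23 with vehicle, and 1 of 16 had a higher value with an unadjusted p under 0.05, as did 1.93% of all tested genes. This was Pfkp, a phosphofructokinase (43.5 ± 14.6 TPM in Akita, 27.6 ± 6.51 TPM in nondiabetic dapagliflozin libraries). Pklr, the liver and kidney pyruvate kinase and a classical ChREBP target, averaged 93.6 ± 28.6 TPM in Akita and 62.9 ± 25.6 TPM in nondiabetic dapagliflozin libraries (log2 0.63 ± 0.33), and passed with vehicle (1.37 ± 0.31). In KO dapagliflozin libraries Pklr differed by 1.07, larger than in WT dapagliflozin libraries, and did not pass. The list of ChREBP and MondoA factors and targets had a median of 0.06, with 9 of 15 above 0. With vehicle that median was 0.24, with 9 above 0, and in KO dapagliflozin libraries 0.19, with 13 above 0.

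Gpd2, the mitochondrial glycerol-phosphate dehydrogenase of an NADH shuttle, was among the genes with the widest gap between settings. It stood at 109, 89.2, 69.3, 118 and 122 TPM in Akita dapagliflozin libraries, against a lowest of 47.0, a median of 81.2 and a highest of 104 TPM in nondiabetic dapagliflozin libraries, a log2 difference of 0.33 ± 0.25. With vehicle it averaged 131 ± 27.9 TPM in Akita and 39.8 ± 11.6 TPM in nondiabetic libraries (log2 1.73 ± 0.24). Of the nondiabetic dapagliflozin libraries only replicate 4 lay within the nondiabetic vehicle range, which ended at 53 TPM.

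Of 16 tested p53 targets 0 passed under dapagliflozin and 0 had an unadjusted p under 0.05 by limma; the median was 0.09 with 11 above 0, against 0.73 with vehicle and -0.14 in KO dapagliflozin libraries. Mdm2, the ligase that limits p53, stood at 80.5, 63.9, 83.8, 80.1 and 65.5 TPM in Akita dapagliflozin libraries, against a lowest of 46.4, a median of 76 and a highest of 102 TPM in nondiabetic dapagliflozin libraries, a log2 difference of 0.06 ± 0.16. Its vehicle difference was 0.85 ± 0.15. Ccng1, cyclin G1, averaged 74.3 ± 26.7 TPM in Akita and 53.7 ± 15 TPM in nondiabetic dapagliflozin libraries (log2 0.42 ± 0.25). Phlda3, a p53-induced inhibitor of AKT, averaged 6.06 ± 0.857 TPM in Akita and 3.55 ± 1.77 TPM in nondiabetic dapagliflozin libraries. Zmat3, an RNA-binding p53 target, averaged 10.4 ± 2.23 TPM and 8.70 ± 0.613 TPM in the same order.

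The means of the 60 genes were also set against those of vehicle libraries within each genotype, as a description with no test. Akita dapagliflozin means lay below Akita vehicle means in 48 of the 52 higher genes, with a median log2 difference of -0.36, and nondiabetic dapagliflozin means lay above nondiabetic vehicle means in 52, with a median of 0.59. For the 8 lower genes the medians were 0.32 in Akita and -0.74 in nondiabetic libraries. Over all 15424 tested genes these medians were 0.00 in Akita and 0.03 in nondiabetic libraries. Of these genes, 7664 had a lower dapagliflozin than vehicle mean in Akita, and 8492 had a higher one in nondiabetic libraries. The 60 genes were chosen for their gap between Akita and nondiabetic vehicle values. That choice pushes their counts and medians in these directions, so they are no measure of the drug.

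Fatty acid oxidation and PPAR alpha targets had 20 of 24 genes above 0 and a median of 0.28, against 0.12 with vehicle and 0.09 in KO dapagliflozin libraries; 0 passed and 2 of 24 had a higher value with an unadjusted p under 0.05, against 1.93% of all tested genes. These were Acot1, which splits fatty acyl-CoA, at 137.3 ± 39.95 TPM in Akita and 80.3 ± 31.1 TPM in nondiabetic dapagliflozin libraries (log2 0.81 ± 0.33), and Cyp4a10, a fatty acid hydroxylase, at 255 ± 72.7 TPM and 160 ± 83.2 TPM in the same order (0.78 ± 0.37). Near-identical relatives can share reads with both genes. Ketone body and monocarboxylate genes had 10 of 11 above 0 with a median of 0.27, and NRF2 targets 20 of 21 with a median of 0.18, against 0.40 with vehicle. Ugdh, which makes UDP-glucuronic acid, averaged 235 ± 63.4 TPM in Akita and 153 ± 60.2 TPM in nondiabetic dapagliflozin libraries (log2 0.66 ± 0.25). Among all tested genes, 8210 of 15424 were above 0. When values were rescaled to the TPM left without mitochondrial rRNA, the median of all genes moved to 0.20, so list medians near 0 are to be read against that shift.

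Brush-border peptidases had 11 of 12 genes above 0 and a median of 0.19. Agt, angiotensinogen, averaged 141 ± 44.8 TPM in Akita and 96.2 ± 29.9 TPM in nondiabetic dapagliflozin libraries (log2 0.56 ± 0.26). Ndrg1, a hypoxia- and stress-induced gene, averaged 319 ± 53.6 TPM in Akita and 190 ± 97 TPM in nondiabetic dapagliflozin libraries (log2 0.94 ± 0.35), while Adm, adrenomedullin, another hypoxia target, averaged 0.995 TPM and 3.25 TPM in the same order. The hypoxia list as a whole had a median of 0.07, with 10 of 17 above 0. In the list of sodium, bicarbonate and phosphate transport, Slc9a8, the sodium-proton exchanger NHE8, averaged 125 ± 31.2 TPM in Akita and 205 ± 72.7 TPM in nondiabetic dapagliflozin libraries (log2 -0.65 ± 0.29). That list had 7 of 18 genes above 0 and a median of -0.14, which became 0.06 after the rescaling without mitochondrial rRNA.

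Id factors and BMP-SMAD targets had 1 of 7 genes above 0 and a median of -0.30, against -0.43 with vehicle, and -0.12 after the rescaling without mitochondrial rRNA. Besides Smad7 the list held Id1, an inhibitor of basic helix-loop-helix factors, at 26.9 ± 5.14 TPM in Akita and 44.4 ± 18.3 TPM in nondiabetic dapagliflozin libraries (log2 -0.62 ± 0.41). Interferon and MHC class I genes had 12 of 27 above 0 and a median of -0.04, against -0.41 with vehicle, and 0.15 after that rescaling. Of these, 3 had a lower value with an unadjusted p under 0.05, against 1.53% of all tested genes; they were Bst2, Gbp5 and Ifi44. Gbp5, an interferon-induced GTPase, averaged 1.67 TPM in Akita and 4.63 TPM in nondiabetic dapagliflozin libraries, and Ifi44 2.92 TPM and 5.70 TPM. Atf3, a stress-induced transcription factor, averaged 0.867 TPM in Akita and 4.21 TPM in nondiabetic dapagliflozin libraries (log2 -1.30 ± 0.57). The list of integrated stress and unfolded protein response had 8 of 18 genes above 0 and a median of -0.07. The list of tubule injury and failed repair had 6 of 14 genes above 0 and a median of -0.27, against -0.16 with vehicle and -0.29 in KO dapagliflozin libraries. In it Il34, a growth factor of macrophages, averaged 8.72 ± 2.81 TPM in Akita and 21.8 ± 14.1 TPM in nondiabetic dapagliflozin libraries. Clu, clusterin, went the other way and averaged 39.3 ± 17.7 TPM and 22.8 ± 8.67 TPM in the same order.

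**Figure D5:**
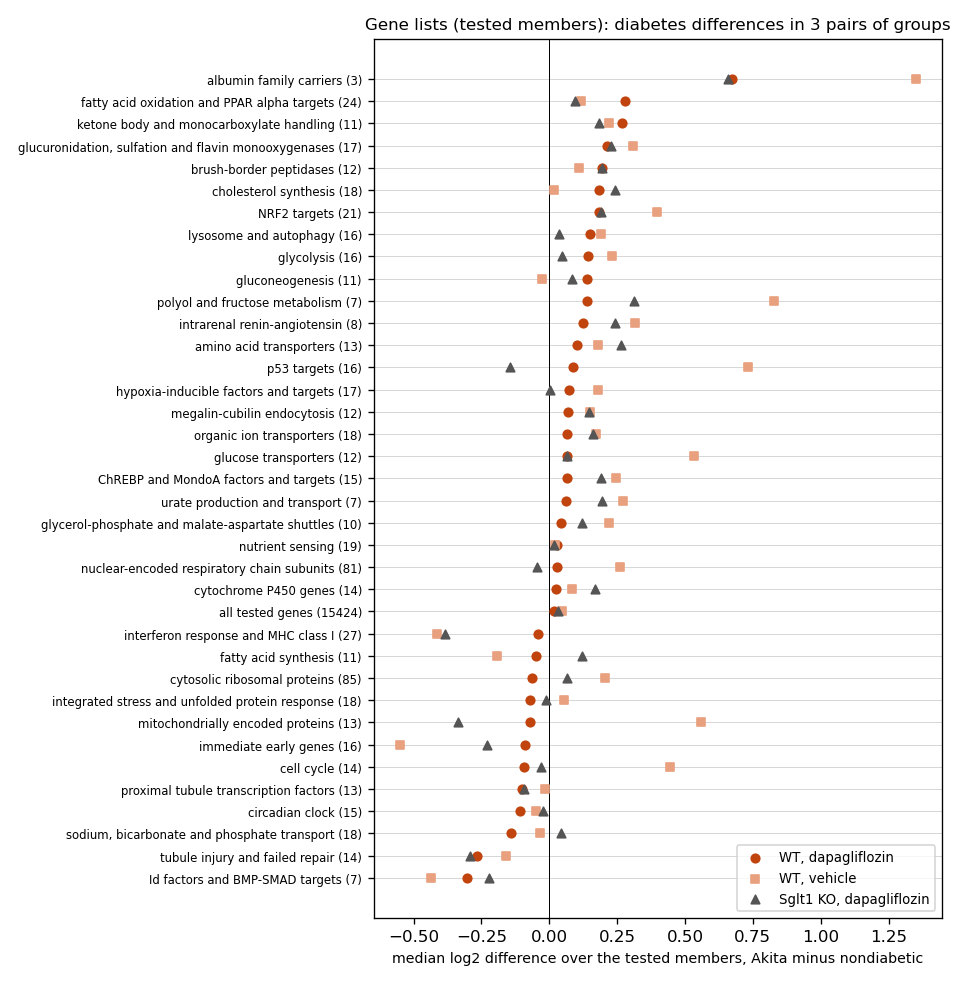
Median log2 difference, Akita minus nondiabetic, over the tested members of 36 gene lists and over all tested genes, for WT dapagliflozin (circles), WT vehicle (squares) and KO dapagliflozin (triangles). The p53 list lies at 0.09 for WT dapagliflozin and 0.73 for WT vehicle, and fatty acid oxidation at 0.28 and 0.12.

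Of 53 tested markers of other tubule segments, vessels, stroma, podocytes and blood cells, 35 were below 0 and 18 above in the comparison of Akita with nondiabetic dapagliflozin libraries. At an unadjusted p under 0.05, 2 of the 53 were lower and 0 higher by limma, close to the 3.46% of all tested genes that reached it in either direction. Of the markers of thick ascending limb 3 of 4 were above 0, and of those of distal convoluted tubule 2 of 3. Macrophage and dendritic cell markers had 3 of 11 above 0 and summed to 412 to 467 TPM in Akita dapagliflozin libraries, against 375 to 641 TPM in nondiabetic dapagliflozin libraries. Laptm5, a lysosomal protein of blood cells, averaged 3.54 TPM in Akita and 6.39 TPM in nondiabetic dapagliflozin libraries. Collecting duct markers had 1 of 7 above 0 and summed to 35.6 to 61.7 TPM in Akita and 19.5 to 139 TPM in nondiabetic dapagliflozin libraries. With the score of these markers as a covariate Gm45011 passed (limma adjusted p 0.0483), while with the 7S RNA share it did not (0.0879).

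The difference between diabetes contrasts was tested for the drug and for the transporter. Between dapagliflozin and vehicle in WT libraries limma called 0 genes (0% of the tested genes), and 681 had an unadjusted p under 0.05 (4.42%). The genes with the smallest p included Ppp1r14d, an inhibitor of protein phosphatase 1, whose diabetes difference was 1.17 ± 0.41 under dapagliflozin and -1.49 ± 0.39 with vehicle. Bcas3, a cytoskeletal and autophagy protein, differed by 0.31 ± 0.16 under dapagliflozin and -0.61 ± 0.15 with vehicle. For Gpd2 the dapagliflozin minus vehicle value was -1.40, with a 95% interval of -2.10 to -0.69 and a limma adjusted p of 0.525. For Mdm2 this value was -0.79 (-1.23 to -0.36), and for Slc5a1 -0.53 (-1.11 to 0.06). None of these passed, and the intervals are not adjusted for the number of genes. Gpd2 and Mdm2 were picked for their large vehicle difference, which is subtracted here, so part of their values follows from that choice. Leaving out nondiabetic vehicle replicate 1 gave 2 genes for this test, and no other library left out changed the 0.

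Between WT and KO libraries under dapagliflozin limma called 0 genes (0% of the tested genes), with 504 at an unadjusted p under 0.05 (3.27%). In KO dapagliflozin libraries the diabetes contrast itself called 0 genes (0% of the tested genes) with 790 at an unadjusted p under 0.05 (5.12%). Ube2e2, a ubiquitin-conjugating enzyme, differed by -0.83 ± 0.26 between the WT dapagliflozin groups and by 0.62 ± 0.25 between the KO dapagliflozin groups. Sharpin, of the linear ubiquitin ligase complex, differed by -0.58 ± 0.19 and 0.31 ± 0.18, and Nap1l4, a histone chaperone, by -0.21 ± 0.11 and 0.35 ± 0.11 in the same order. Of the 60 genes of the vehicle comparison, 53 had their direction in WT dapagliflozin and 52 in KO dapagliflozin libraries. Ctnna2 differed by 0.86 ± 0.28 in WT and by 0.85 ± 0.27 in KO dapagliflozin libraries, and Afm by 0.67 ± 0.20 and 0.66 ± 0.19.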

How the data were processed

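Late proximal tubules were captured by laser, and total RNA libraries were made from 0.5 ng of RNA, per the labels' protocols. The authors deposited log10 values of TPM per gene, on the build GRCm38 per the submitters' processing notes. For the aligner, the annotation and the scaling between libraries nothing is given in the sources used here, and read depth is unknown. In 51 of 52 libraries the TPM add up to a total above that which defines the unit, and no source explains this. Of the 54 samples in the labels, Akita WT dapagliflozin replicate 2 and Akita WT semaglutide replicate 1 had no column and were not analysed here.

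Values were turned back to TPM, with blank cells, 7.02% of all, taken as 0. The tested set was the 15424 of 19068 genes averaging 1 TPM or more. Positions came from GENCODE. The model, in limma 3.58.1 under R 4.3.3, took log2(TPM + 1) with a mean for each of 9 groups and moderated the variances with a robust trend; p-values were adjusted by Benjamini-Hochberg, threshold 0.05. Fold changes on this scale understate the change of low genes. Levels carry an SD, differences an SE.

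Members and gene lists were chosen with earlier results of these data known. Genes were named by rule: passed genes, up to 10 each way with the smallest p and a log2 size of at least 0.5, the 12 smallest p of the vehicle comparison, up to 4 per list, 5 per test of a difference, and Slc5a1 and Slc5a2; not all are described, and some items are not reported here. Alternatives were the pseudocount, the filter, scaling, weights, covariates, a fit on the compared groups only, and each library left out. Sequences are from RefSeq. Replicate numbers follow the labels' order and pair no samples. Raw reads were not analysed here.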

Additional observations from a re-analysis of the deposited data

Results flagged for a closer look

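In 14 of 160 checks of a gene or library measure in a dapagliflozin group, 1 library lay far from the rest of its group. Chance flags about 1 in 20 where values follow a normal distribution. Genes were checked as TPM without a log scale, for which the rate was not tested, so the 14 are not shown to be an excess.

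Among the nondiabetic dapagliflozin libraries, replicate 1 held 23.3 TPM of Rasal3 (next 6.92), 95.4 TPM of Slc5a2 (next 18.9) and 38.1 TPM of Mlxip (next 16.2). Replicate 2 held 77.7 TPM of Rpgrip1l (next 25.1), 12.6 TPM of Gbp5 (next 3.94) and the lowest Bloc1s5 value, 2.12 TPM (next 3.27). Replicate 3 held 12.4 TPM of Gc (next 2.21), replicate 5 held 5.15 TPM of Gla, the lysosomal alpha-galactosidase (next 2.00), and replicate 6 held 184 TPM of Acly (next 103).

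Among the Akita dapagliflozin libraries, replicate 5 held 16.3 TPM of Bloc1s5 (next 9.87), and replicate 1 held 105 TPM of Hist2h2aa2, at 0 in the other Akita libraries. Replicate 3 held 17.1 TPM of Nup107, a nuclear pore protein (next 10.7), and replicate 6 held 37.5 TPM of Ube2e2 (next 17.2) and 22.6 TPM of Gpc1 (next 12.03).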

How the results depend on the processing

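The count of genes higher in Akita dapagliflozin libraries was 1 and became 0 with a pseudocount of 0.1, with only the groups compared in the fit and with the percent of 7S RNA as a covariate, where the adjusted p of Gm45011 was 0.302, 0.127 and 0.0879; leaving out single libraries gave 0 to 1. The 0.1 pseudocount weights low values more, and the fit of the groups compared rests on fewer samples; for the covariate the cause was not tested. The count of lower genes became 1 (Dpf3) with array weights. The WT test of dapagliflozin against vehicle gave 1 gene (Ppp1r14d) when the other-cell marker score was a covariate and 0 to 2 without single libraries, and the test against KO gave 0 in every fit run.

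Of the 60 genes of the vehicle comparison, 19 had the same direction with an unadjusted p under 0.05. This count became 35 when the sum of TPM left out mitochondrial rRNA, which moved the median of all genes to 0.20. It became 11 with a mean of at least 5 TPM, where fewer genes are tested and members of the 60 below that mean drop out. Lists with a median between -0.15 and 0 turned positive in the rescaled fit, for example mitochondrially encoded proteins (0.14). The 7S covariate, the rescaling without 7S RNA and the counts over the 60 genes were chosen after seeing the data. No result changed direction past the threshold. No paired analysis was possible because no number is shared between libraries in the labels. Depth is unknown.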
